A study of Homo sapiens with 12 samples.

Results

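The transcripts of 10 chemokine and cytokine genes were followed in A375, a human melanoma cell line that carries a BRAF mutation. The genes are CXCL8, CXCL1, CXCL2, CXCL3, IL6, IL1A, IL1B, CCL2, IL24 and LIF. They were given as a named list, and each was found by its Ensembl identifier among the 58347 genes of the count files. RNA was sequenced from 12 samples in 4 groups of 3 replicates. The groups were DMSO (the vehicle), tretinoin, vemurafenib and the vemurafenib + tretinoin combination. Every group carries the labels 5 µM and 8 h, the vehicle included. Vemurafenib inhibits the mutant BRAF kinase, which drives the ERK pathway, and tretinoin (all-trans retinoic acid) is a ligand of the retinoic acid receptors. All samples are a single cell line with no immune or stromal cells labelled. Nothing in the labels says that the 3 replicates came from separate culture days, so P-values here measure the spread between these samples, which may be technical. The study asked what each drug and the combination change in BRAF-mutant melanoma cells.

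Chemokines are small secreted proteins that attract leukocytes. CXCL8 (interleukin-8), CXCL1, CXCL2 and CXCL3 bind CXCR2 and draw neutrophils, and CCL2 binds CCR2 and draws monocytes. IL1A and IL1B are the agonists of the interleukin-1 receptor, which activates NF-kB. IL6 and LIF signal through receptors that contain gp130 (IL6ST) and activate STAT3, and IL24 belongs to the IL-10 family. Melanoma cells are known to secrete several of these factors themselves. Transcription of the CXC genes is classically driven by NF-kB and AP-1, and their mRNAs are short-lived because AU-rich elements in the 3′ UTR recruit decay factors such as ZFP36.

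The CXC promoters are shown because the 4 genes share an NF-kB motif at nearly the same place. RefSeq promoter sequences (GRCh38.p14) were at hand for 8 of the 10 genes, all but CCL2 and LIF. The 250 bases before each start were searched on both strands for the letters GGAATTTCC (an NF-kB motif) and TGANTCA (the AP-1 motif). The NF-kB letters were found once each before CXCL8, CXCL1, CXCL2 and CXCL3, beginning 91, 78, 77 and 78 bases before the RefSeq start, and in 0.413% of all 35116 promoters. They were not found before IL6, IL1A, IL1B or IL24. These letters are an exact form that the 4 CXC promoters share, and other forms of the NF-kB motif were not searched. The share of all promoters is thus a description and not a test, and genes without these letters may hold another form. The AP-1 letters were found before CXCL8 and IL1A, and in 6.57% of all promoters. The motifs do not overlap each other. In the sequences below the capitals mark these motifs. The CXCL8 stretch lies on the plus strand at chr4:73740419-73740505, CXCL1 on the plus strand at chr4:73869283-73869392, CXCL2 on the minus strand at chr4:74099254-74099282, and CXCL3 on the minus strand at chr4:74038749-74038777.
CXCL8: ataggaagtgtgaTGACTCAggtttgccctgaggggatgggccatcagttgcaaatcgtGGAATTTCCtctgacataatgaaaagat
CXCL1: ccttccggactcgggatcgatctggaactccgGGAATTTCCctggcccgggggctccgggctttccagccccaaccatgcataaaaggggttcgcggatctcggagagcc
CXCL2: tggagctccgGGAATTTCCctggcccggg
CXCL3: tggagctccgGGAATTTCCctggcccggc

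The 3′ UTRs of the same genes are shown for their AU-rich elements, with the letters TTATTTATT in capitals. They were read from the GENCODE 29 transcript of each gene with the longest coding sequence. The first match in each 3′ UTR is printed with its neighbouring bases. The CXCL8 site lies at chr4:73742664-73742692, CXCL1 at chr4:73870674-73870702, CXCL2 at chr4:74097590-74097618, CXCL3 at chr4:74036773-74036801, IL1B at chr2:112829995-112830023 and LIF at chr22:30240958-30240986. CXCL8 and CXCL1 lie on the plus strand and the other sites on the minus strand.
CXCL8: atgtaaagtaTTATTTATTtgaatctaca
CXCL1: agtcttctatTTATTTATTtattcattag
CXCL2: agtcttctatTTATTTATTtatttattta
CXCL3: atgtcagttgTTATTTATTcaaattatct
IL1B: gcttccctatTTATTTATTtatttgtttg
LIF: ctccgggcccTTATTTATTatttaaacat

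TTATTTATT was thus present in 6 of the 10 genes. It was present in 7.07% of the 10719 genes whose 3′ UTR was in the same range of length, 376 to 3204 bases. CXCL2 held the most matches, 5 with overlapping matches counted, and IL6, IL1A, CCL2 and IL24 held none. The shorter pentamer ATTTA occurred between 2.18 times per kb, in LIF, and 14.0 times per kb, in IL6, against a median of 1.72 per kb for genes of that range. These matches describe the sequences only.

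Total counts lay between 13510235 and 21534377 per sample. Levels are given as CPM, the counts of a gene relative to the library total after TMM scaling, and a difference was called where the Benjamini-Hochberg adjusted P of edgeR's quasi-likelihood test was under 0.05. A gene was tested where at least 3 samples exceeded 0.553 CPM, which left 16740 genes and 8 of the 10 members. IL6 and IL1B were not tested. The pooled spread covered all 12 samples. The first tretinoin replicate stood apart from the other 2, with a chi-square per degree of freedom of 21.5 and 24.5 against them, where other replicate pairs gave 2.69 to 9.39. The calls of the members with tretinoin are also given without it. Known readouts of both drugs were examined first. All 12 ERK pathway readouts were lower with vemurafenib, for example DUSP6 (log2 fold change -6.07) and SPRY4 (-6.55), where 26.3% of all genes were lower. With tretinoin 5 of 8 tested retinoid readouts were higher, for example DHRS3 (2.91) and STRA6 (1.34), where 3.48% of all genes were higher. Without the first tretinoin replicate 4 of the 8 were higher, and CYP26B1 was no longer called (adjusted P = 0.0852). Of 8 melanocyte-lineage markers, S100B, MITF and PAX3 were well detected, PMEL was low, MLANA and DCT had at most 19 counts, SOX10 had no count in any sample, and TYR had at most 1. Their sum was 34.1 to 56.2 CPM.

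Leukocyte markers summed to between 4.06 and 9.57 CPM over the 8 genes of the list, and CD68 did not exceed 2 counts in any sample. Exon overlap with other genes was not examined for any marker gene, and the counting ignored strand, so a low marker count may not show absence. PTPRC, the pan-leukocyte marker CD45, lay at 0.739 to 1.76 CPM with DMSO, 2.03 to 3.74 with tretinoin, 2.29 to 3.12 with vemurafenib and 3.12 to 4.57 with the combination. LYZ did not follow PTPRC, at 2.74 to 3.65, 3.23 to 4.33, 2.45 to 3.06 and 2.60 to 3.19 CPM in the same order of groups. CD3E, CD14, ITGAM, MS4A1 and NKG7 had at most 14 counts in a sample. The 4 endothelial markers summed to 7.99 to 10.8 CPM with DMSO, 18.02 to 22.9 with tretinoin, 3.24 to 3.999 with vemurafenib and 5.94 to 6.88 with the combination, and CDH5 made up most of the sum with tretinoin. The 6 fibroblast markers summed to 15.5 to 18.2 CPM with DMSO, 16.7 to 17.9 with tretinoin, 48.7 to 50.8 with vemurafenib and 35.1 to 39.6 with the combination, mostly PDGFRB. The endothelial sum had the same order of groups as CCL2 below, while VWF of that list was higher with vemurafenib and the combination. The part of these marker levels in the results was not tested.

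The 10 transcripts together, summed as CPM and not divided by exon length, were lowest with vemurafenib and highest with tretinoin. Their summed level, for which no test was made, was 170.5 ± 4.93 CPM with DMSO (mean ± SD, n = 3 throughout), 196.2 ± 5.65 with tretinoin, 14.1 ± 0.752 with vemurafenib and 20.4 ± 1.83 with the combination. The samples of the 4 groups did not overlap, with ranges of 165.8 to 175.7, 189.7 to 199.7, 13.6 to 14.96 and 18.7 to 22.3. Fewer cells that express a gene and less RNA in each cell cannot be told apart in bulk samples. The make-up changed as well when levels were divided by exon length. CXCL1 held the largest share of the summed CPM per kb with DMSO, 46.9% ± 5.77, and CCL2 the largest with the combination, 49.4% ± 7.72. LIF held between 19.4% and 33.1% in every group. From DMSO to tretinoin, CXCL1 went from 38.1 to 20.9 CPM per kb and LIF from 15.7 to 25.8. The higher sum with tretinoin thus need not hold per kb.

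**Figure D1:**
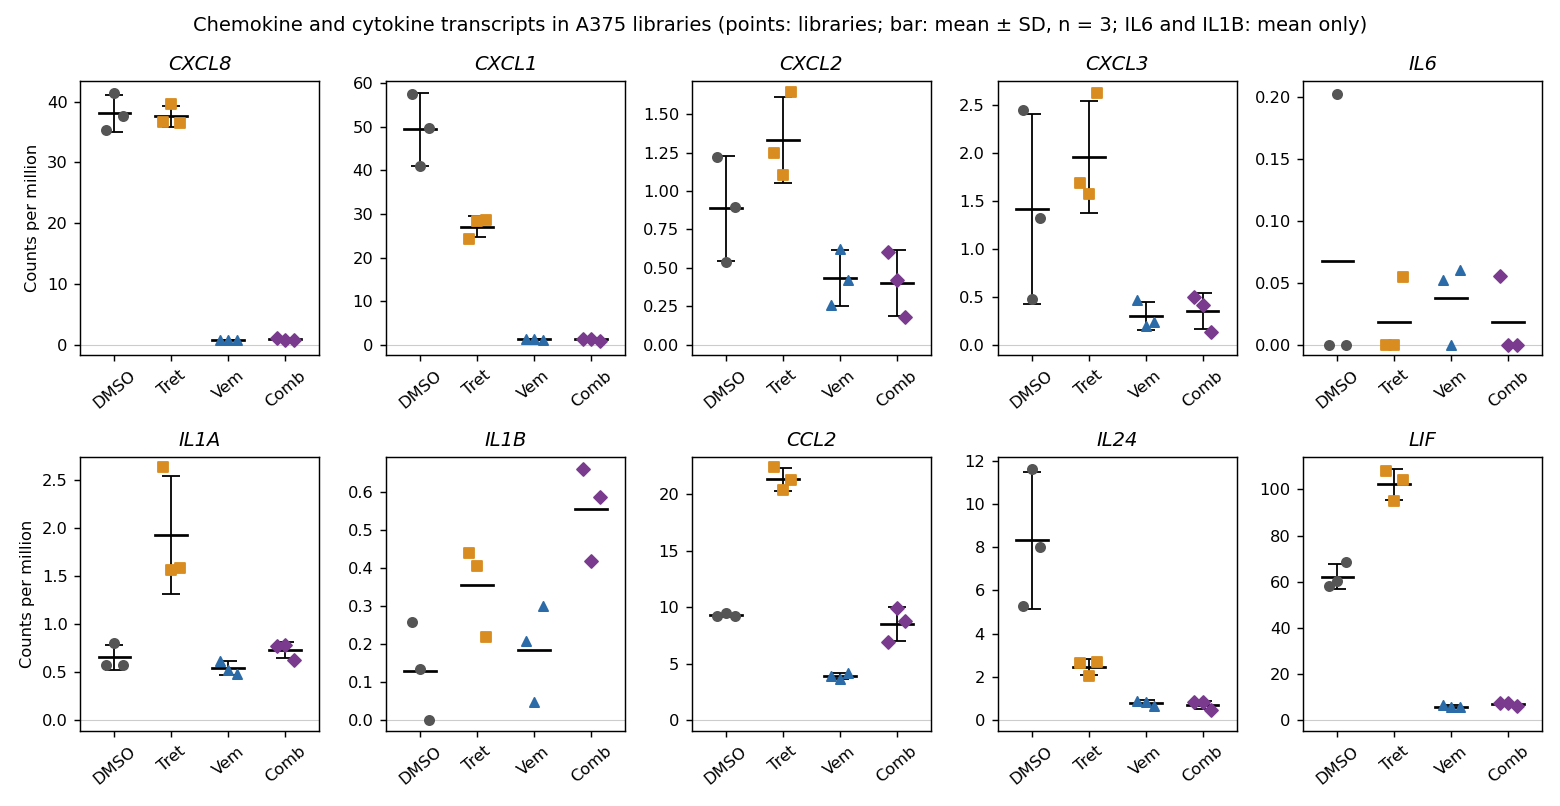
CPM after TMM scaling (y axis, linear, a scale for each gene) of the 10 genes in the 3 libraries of each group (x axis), with the mean ± SD except for IL6 and IL1B, where the bar is the mean. In all 6 libraries with vemurafenib CXCL8 and CXCL1 lie at 1.39 CPM or less and LIF between 5.58 and 7.39 CPM, while CCL2 is about level between DMSO (9.28) and the combination (8.54).

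**Figure D2:**
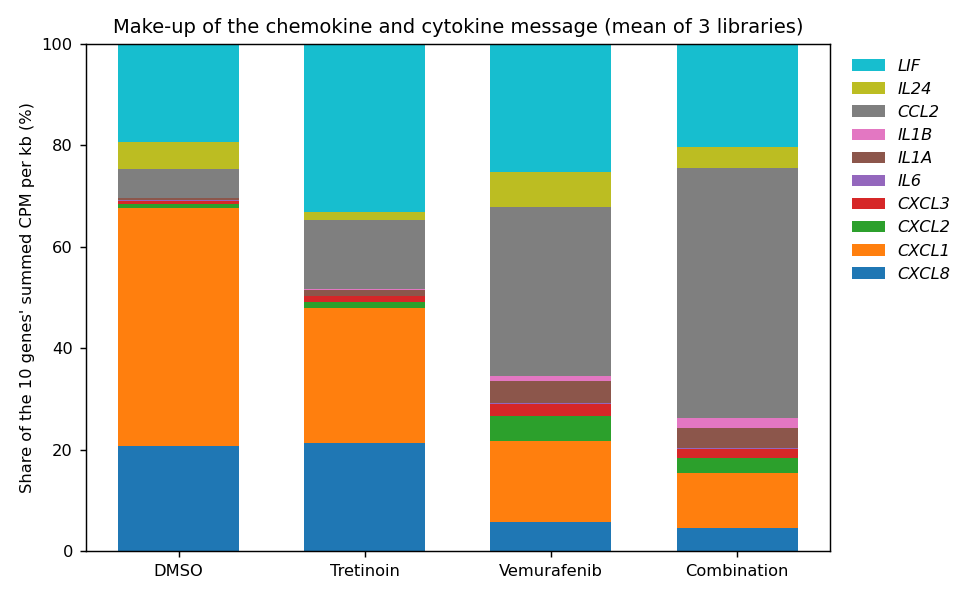
Share of each gene in the summed CPM per kb of the 10 genes (y axis, %, mean of 3 libraries) in the 4 groups (x axis). CXCL1 goes from 46.9% with DMSO to 10.8% with the combination, and CCL2 from 5.78% to 49.4%.

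CXCL8 and CXCL1, the most abundant CXC chemokines here, were nearly lost with vemurafenib. CXCL8 (ENSG00000169429.10, chr4:73740506-73743716) was at 35.3, 41.3 and 37.6 CPM with DMSO, 36.7, 39.6 and 36.4 with tretinoin, 0.779, 0.770 and 0.721 with vemurafenib, and 1.16, 0.790 and 0.724 with the combination. The DMSO and tretinoin samples overlapped, the vemurafenib and combination samples overlapped, and every sample without vemurafenib lay far above every sample with it. Vemurafenib lowered CXCL8 by 49.8-fold relative to DMSO (log2 fold change -5.64 ± 0.143 SE, adjusted P = 4.00e-15), and the combination by 43.2-fold (-5.43 ± 0.137, adjusted P = 2.96e-15). CXCL8 ranked 7 from the lowest log2 fold change among the 16740 genes with vemurafenib and 5 with the combination. Tretinoin alone gave a log2 fold change of -0.02 (95% interval -0.20 to 0.16, adjusted P = 0.923). The counts behind the low values were 12 to 21 per sample. Between the combination and vemurafenib, where both groups had such counts, the SE was 0.250. The smaller SEs of the large falls against DMSO may thus be too narrow.

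CXCL1 (ENSG00000163739.4, chr4:73869393-73871242) had counts of 607 to 941 per sample with DMSO and 18 to 30 with either vemurafenib treatment. It was at 57.5, 41.0 and 49.7 CPM with DMSO, 24.3, 28.3 and 28.6 with tretinoin, 1.25, 1.35 and 1.08 with vemurafenib, and 1.38, 1.39 and 0.905 with the combination. Here the tretinoin samples all lay below the DMSO samples. Tretinoin lowered CXCL1 by 1.82-fold (log2 fold change -0.87 ± 0.114, adjusted P = 0.000132), and by -0.80 on the log2 scale without the first tretinoin replicate (adjusted P = 3.94e-05). Vemurafenib lowered it by 39.8-fold (-5.32 ± 0.168, adjusted P = 5.70e-14) and the combination by 40.4-fold (-5.34 ± 0.166, adjusted P = 3.95e-14). Tretinoin alone thus gave a call for CXCL1 and none for CXCL8, and the difference between the genes was not tested. In order of level, CXCL1 went from DMSO over tretinoin to the vemurafenib and combination groups, and the last 2 did not differ beyond their spread (log2 difference -0.02, 95% interval -0.59 to 0.55).

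CXCL2 and CXCL3, the close paralogs of CXCL1, were weakly expressed. CXCL2 (ENSG00000081041.8, chr4:74097035-74099293, minus strand) was at 1.22, 0.540 and 0.897 CPM with DMSO, 1.25, 1.10 and 1.64 with tretinoin, 0.260, 0.625 and 0.421 with vemurafenib, and 0.605, 0.418 and 0.181 with the combination. All these are 4 to 30 counts, and the DMSO samples overlapped every other group. Vemurafenib gave a log2 fold change of -1.01 ± 0.444 that was not called (adjusted P = 0.0656). The combination gave -1.17 ± 0.447, which was called (adjusted P = 0.0346) but lost with DESeq2 (adjusted P = 0.0681), with the replicate number as a block (0.0524) and without any of 4 samples, for example DMSO replicate 1 (0.153) and combination replicate 3 (0.155).

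CXCL3 (ENSG00000163734.4, chr4:74036589-74038807, minus strand) was at 2.45, 0.473 and 1.32 CPM with DMSO, 1.69, 1.57 and 2.63 with tretinoin, 0.467, 0.192 and 0.240 with vemurafenib, and 0.495, 0.418 and 0.136 with the combination. The second DMSO replicate was low for CXCL1, CXCL2 and CXCL3, and its 7 counts of CXCL3 brought the DMSO samples down to those of the combination, with which they overlapped. CXCL3 fell with vemurafenib (log2 fold change -2.22 ± 0.557, adjusted P = 0.00288) and with the combination (-2.03 ± 0.534, adjusted P = 0.00386). Over the fits that left out a sample the vemurafenib value lay between -2.69 and -1.61 and stayed called (highest adjusted P = 0.0300). Tretinoin alone gave log2 fold changes of 0.58 for CXCL2 (95% interval -0.22 to 1.38) and 0.48 for CXCL3 (95% interval -0.41 to 1.36), neither called. Leaving out DMSO replicate 2 moved these to 0.35 and 0.0928, leaving out tretinoin replicate 3 moved CXCL3 to 0.19, and leaving out DMSO replicate 1 moved CXCL3 to 1.09, again with no call. The longest shared stretch of CXCL1 and CXCL2 transcripts was 1101 bases at 88.7% identity, and no member shared 150 bases at 98% identity with a paralog. How reads that match several places were counted is not given in the sources used here.

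CCL2, the monocyte attractant, moved in opposite directions with the drugs. CCL2 (ENSG00000108691.9, chr17:34255218-34257203) was at 9.22, 9.46 and 9.18 CPM with DMSO, 22.4, 20.3 and 21.2 with tretinoin, 3.90, 3.66 and 4.15 with vemurafenib, and 6.93, 9.90 and 8.78 with the combination. The tretinoin samples were highest, the vemurafenib samples lowest, and the combination samples spread around the narrow range of DMSO. Tretinoin raised CCL2 by 2.29-fold (log2 fold change 1.20 ± 0.115, adjusted P = 5.22e-06; 1.16 without the first tretinoin replicate, adjusted P = 5.55e-07). Vemurafenib lowered it by 2.38-fold (-1.25 ± 0.136, adjusted P = 5.95e-07). The combination was 2.20-fold higher than vemurafenib alone (1.14 ± 0.134, adjusted P = 2.51e-05) and 2.48-fold lower than tretinoin alone (-1.31 ± 0.113, adjusted P = 3.84e-08). In the same samples the endothelial marker CDH5 was at 64 to 98 counts with DMSO, 200 to 242 with tretinoin, 1 to 4 with vemurafenib and 45 to 78 with the combination. In the same order of groups, KDR was at 42 to 88, 78 to 99, 14 to 18 and 11 to 21 counts. PECAM1 was at 12 to 18, 19 to 36, 5 to 16 and 9 to 17. VWF was instead higher with vemurafenib, at 1 to 15, 1 to 13, 34 to 43 and 33 to 46. The part of these markers in the CCL2 result was not tested. For CCL2 the combination differed from DMSO by -0.11 on the log2 scale, with a 95% interval of -0.37 to 0.14. The tretinoin difference was thus 1.20 without vemurafenib and 1.14 with it, and their own difference was -0.06 (95% interval -0.44 to 0.32).

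LIF, a gp130 cytokine, rose with tretinoin and fell with vemurafenib. LIF (ENSG00000128342.4, chr22:30240447-30246851, minus strand) was at 58.1, 60.3 and 68.4 CPM with DMSO, 107.8, 94.8 and 104.2 with tretinoin, 6.54, 5.58 and 5.59 with vemurafenib, and 7.37, 7.39 and 6.25 with the combination. Only the vemurafenib and combination samples overlapped. Tretinoin raised LIF by 1.64-fold (log2 fold change 0.71 ± 0.082, adjusted P = 3.24e-05; 0.67 without the first tretinoin replicate, adjusted P = 4.94e-06). Vemurafenib lowered it by 10.5-fold (-3.40 ± 0.103, adjusted P = 2.92e-14) and the combination by 8.91-fold (-3.16 ± 0.0992, adjusted P = 4.77e-14). The combination differed from vemurafenib by 0.24 on the log2 scale, which was not called (95% interval -0.01 to 0.49, adjusted P = 0.379). Exons of LIF-AS1 and AC004264.1 on the opposite strand share 267 of the 3969 exon bases of LIF, and the counting ignored strand. Per kb, CXCL1 exceeded LIF with DMSO (38.1 ± 6.39 against 15.7 ± 1.36 CPM per kb), while LIF exceeded CXCL1 with the combination (1.76 ± 0.165 against 0.945 ± 0.214).

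IL6, the best known gp130 cytokine, was at or near 0 in these cells. IL6 (ENSG00000136244.11, chr7:22725884-22732002) had 3 counts in the second DMSO replicate, 1 count in 4 other samples and none in the remaining 7. A count of 3, the limit that a count of 0 allows, corresponds to between 0.136 and 0.220 CPM depending on the sample. A difference between groups was not detectable at this depth. Exons of STEAP1B and AC073072.1 on the opposite strand share 474 of its 2069 exon bases.

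IL24, an IL-10 family cytokine, fell with each treatment. IL24 (ENSG00000162892.15, chr1:206897443-206904139) was at 5.28, 11.6 and 8.02 CPM with DMSO, 2.64, 2.03 and 2.68 with tretinoin, 0.883, 0.866 and 0.661 with vemurafenib, and 0.825, 0.836 and 0.498 with the combination. The DMSO samples spread widely and still lay above all treated samples, and the tretinoin samples lay above those with vemurafenib. Tretinoin lowered IL24 by 3.38-fold (log2 fold change -1.76 ± 0.249, adjusted P = 0.000270; -1.81 without the first tretinoin replicate, adjusted P = 6.53e-05). It ranked 9 from the lowest among the 16740 genes. Vemurafenib lowered it by 10.1-fold (-3.34 ± 0.290, adjusted P = 3.80e-08) and the combination by 11.5-fold (-3.52 ± 0.291, adjusted P = 1.88e-08). The vemurafenib and combination groups did not differ beyond their spread (log2 difference -0.18, 95% interval -1.04 to 0.67).

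IL1A and IL1B, the interleukin-1 agonists, were expressed at low levels. IL1A did not pass the test with vemurafenib against DMSO, and IL1B was not tested. IL1A (ENSG00000115008.5, chr2:112773915-112784590, minus strand) was at 0.580, 0.811 and 0.580 CPM with DMSO, 2.64, 1.57 and 1.59 with tretinoin, 0.623, 0.529 and 0.481 with vemurafenib, and 0.770, 0.790 and 0.634 with the combination. The tretinoin samples stood above all others, and the first of them was the highest. Tretinoin raised IL1A by 2.90-fold (log2 fold change 1.54 ± 0.311, adjusted P = 0.00689), and without its first replicate the log2 fold change was 1.27 (adjusted P = 0.0315). Vemurafenib gave -0.25 (95% interval -1.03 to 0.53) and the combination 0.16 (95% interval -0.57 to 0.89) against DMSO. The combination was lower than tretinoin alone by 2.59-fold (-1.37 ± 0.293, adjusted P = 0.000819).

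IL1B (ENSG00000125538.11, chr2:112829751-112836903, minus strand) had 4, 2 and 0 counts with DMSO, 6, 7 and 4 with tretinoin, 4, 1 and 5 with vemurafenib, and 12, 9 and 13 with the combination. The combination samples all lay above those of the other groups, but the gene did not pass the filter. In a fit with no filter, the combination exceeded DMSO by a log2 fold change of 2.10 ± 0.677 (adjusted P = 0.0111), and the difference from vemurafenib was not called (1.61 ± 0.612, adjusted P = 0.267). These rest on at most 13 counts in a sample.

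Across the members, tretinoin against DMSO gave 5 calls among the 8 tested genes, 3 higher and 2 lower, where 5.68% of all tested genes were called, 3.48% higher and 2.2% lower. IL1A, CCL2 and LIF were higher, and CXCL1 and IL24 were lower. The median log2 fold change of the 8 genes was 0.53, against 0.01 over all genes. Vemurafenib gave 6 calls, all lower, where 52.6% of all genes were called, 26.4% higher and 26.3% lower. The median was -2.78 against 0.02. The combination against DMSO also gave 6 calls, all lower and with CXCL2 in place of CCL2, where 53.6% of all genes were called, 27.1% higher and 26.5% lower. The comparisons with DMSO share the 3 DMSO samples. Since CXCL2, CXCL3 and IL1A exceeded the filter in all 3 samples of the tretinoin group but not in all 3 of DMSO, their passing depended in part on their treated levels. With total counts in place of TMM factors, the median of all genes moved to 0.21 for vemurafenib, 0.19 for the combination and 0.08 for tretinoin against DMSO, and 6575 genes were called higher and 2628 lower with vemurafenib instead of 4411 and 4400. For tretinoin the split was 758 and 174 instead of 583 and 368, for the combination against DMSO 6242 and 2916 instead of 4537 and 4440, and for the combination against tretinoin 5051 and 3271 instead of 4026 and 4191. The directions of the calls named here did not change under this scaling, which ended the CXCL2 call (adjusted P = 0.0685).

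**Figure D3:**
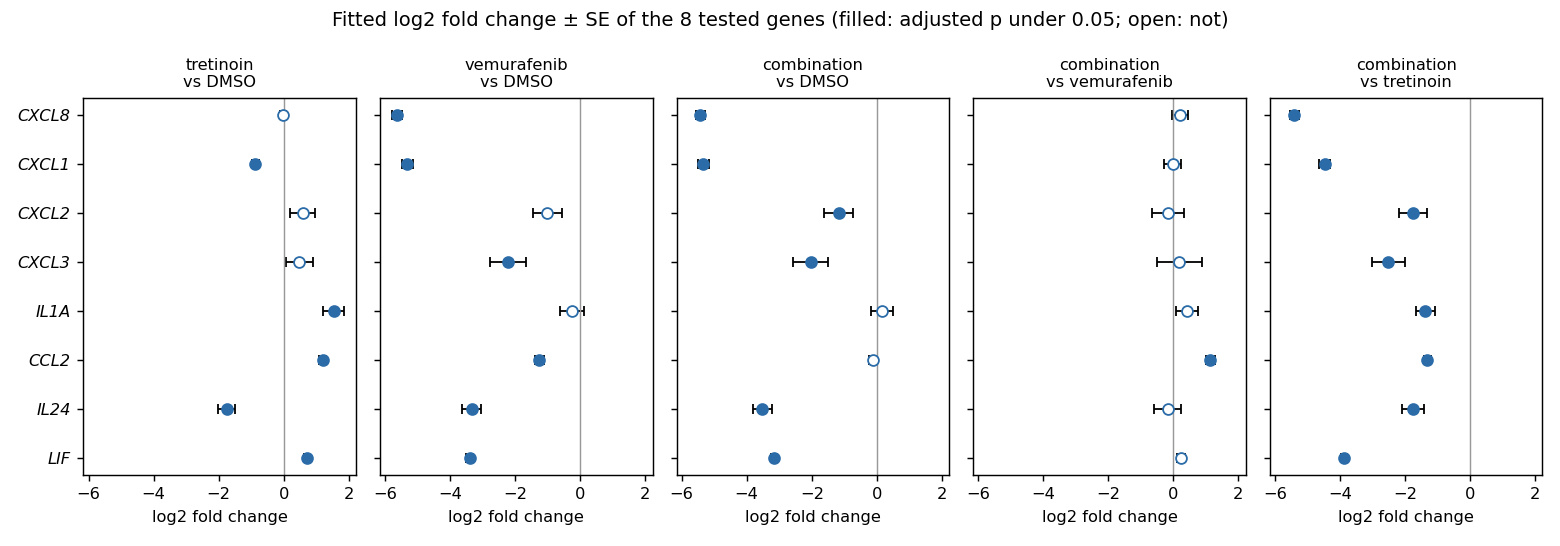
Fitted log2 fold change ± SE (x axis) of the 8 tested genes (rows) in 5 comparisons (panels), filled where called and open where not. Filled points for CXCL8, CXCL1, IL24 and LIF lie between -3.16 and -5.64 in the 2 panels of vemurafenib or the combination against DMSO, and CCL2 is the filled point in the panel of the combination against vemurafenib.

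The combination was then compared with each drug. Against tretinoin alone, all 8 tested members were lower, from -1.31 for CCL2 to -5.41 for CXCL8, where 49.1% of all genes were called, 24.1% higher and 25% lower. Against vemurafenib alone, CCL2 was the member called, higher by 1.14, where 4.47% of all genes were called, 2.27% higher and 2.2% lower. IL1A samples of the combination lay above those of vemurafenib without passing the test (0.41, 95% interval -0.32 to 1.14). The interaction is the tretinoin difference with vemurafenib minus that without it. It was called for none of the 8 members in the main edgeR fit or in DESeq2 without a prior. In the main fit it was called for 0.806% of all genes. With total counts 36 genes were called higher and 132 lower instead of 64 and 71, and the median of all genes moved to -0.11. At an unadjusted P under 0.05 the interaction was nominal for 4 members. They were IL24 (1.58, adjusted P = 0.150), LIF (-0.47, adjusted P = 0.150), CXCL1 (0.84, adjusted P = 0.202) and IL1A (-1.12, adjusted P = 0.278). The share of all genes at that unadjusted threshold is not given here, so the count of 4 has no background to be set against. DESeq2 with a beta prior called IL24 (1.41, adjusted P = 0.0284), and over all alternatives the adjusted P for IL24 ranged from 0.00787 to 0.315. It was also called in edgeR without DMSO replicate 1 (1.81, adjusted P = 0.0464) and in edgeR with no low-count filter, which gave the 0.00787. With vemurafenib present the counts of CXCL1 and IL24 were 11 to 30 per sample.

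**Figure D4:**
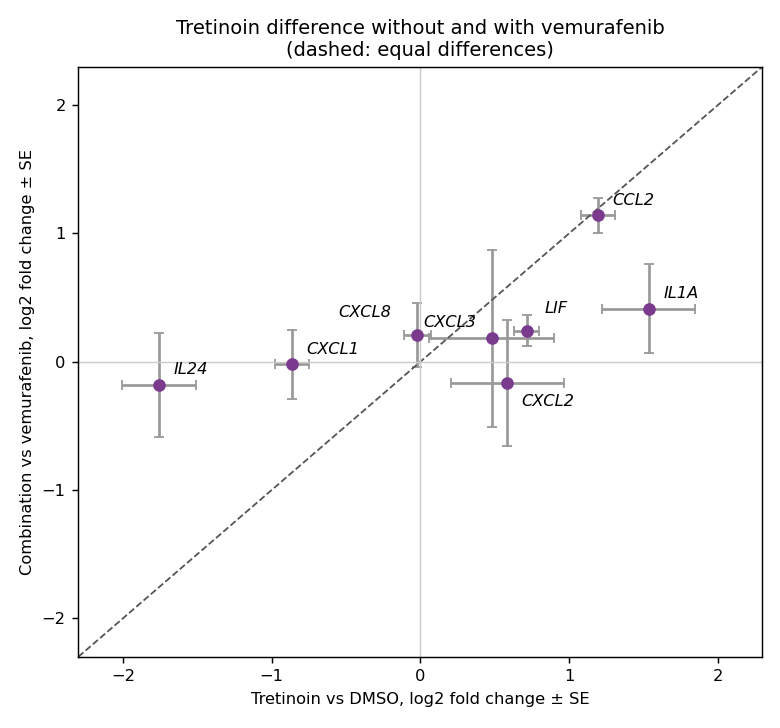
Log2 fold change ± SE of tretinoin against DMSO (x axis) and of the combination against vemurafenib (y axis) for the 8 tested genes, with a dashed line where both are equal. CCL2 lies on the line at 1.20 and 1.14, while IL24 (-1.76 and -0.18), CXCL1 (-0.87 and -0.02) and IL1A (1.54 and 0.41) lie nearer to 0 on the y axis.

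Other secreted ligands were counted against the same share of all genes with vemurafenib, 52.6% called, 26.4% higher and 26.3% lower, as were the lists that follow. Of 28 other chemokines 4 passed the filter, and with vemurafenib 3 were higher and none lower (median of the 4 tested 0.58). CX3CL1, which attracts cells that bear CX3CR1, rose from 1.29 ± 0.280 CPM with DMSO to 6.47 ± 0.812 with vemurafenib (log2 fold change 2.33, adjusted P = 1.38e-07), and the combination stood below vemurafenib (3.003 ± 0.773 CPM, log2 difference -1.11, adjusted P = 0.00127). CCL28 (0.74) rose as well, and CXCL16 (0.42) was called in edgeR but not in DESeq2 (adjusted P = 0.0559). CXCL5 and CXCL6, further CXCR2 ligands, had at most 2 counts in any sample. Of 32 other cytokines 14 were tested, and vemurafenib gave 2 higher and 6 lower (median -0.39), in all a share near that of all genes. IL11, like LIF a gp130 cytokine, fell from 34.3 ± 1.998 to 6.62 ± 1.013 CPM (log2 fold change -2.38, adjusted P = 2.08e-11), and the combination took it lower still, to 4.14 ± 0.656 (-0.67 against vemurafenib, adjusted P = 0.00678). CSF2 (GM-CSF) went from 25 to 28 counts per sample with DMSO to 0 or 1 with vemurafenib and was called lower (adjusted P = 3.07e-06). IL12A (-1.21) and CLCF1 (-1.11), another gp130 ligand, fell, and IL16 (1.42) and IL15 (1.04) rose. Tretinoin gave no call among these other ligands in edgeR or DESeq2. In edgeR 0 of the 4 chemokines and 2 of the 14 cytokines had an unadjusted P under 0.05, a threshold for which no share of all genes is given.

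The receptors were examined next. Of 17 receptor genes 8 were tested. CXCR1 had no counts and CXCR2 at most 2, so mRNA of the receptors for the CXC members was at or under the limit of detection in these cells. The gp130 receptor chains were detected in all groups. LIFR rose from 19.8 ± 2.502 to 32.3 ± 4.64 CPM with tretinoin (log2 fold change 0.70 ± 0.122, adjusted P = 0.00214) and IL6ST from 99.7 ± 9.54 to 136 ± 22.2 (0.44 ± 0.106, adjusted P = 0.0197). Both were called without the first tretinoin replicate, at 0.58 and 0.31. With vemurafenib IL6ST was lower by the TMM scale (-0.28, adjusted P = 0.0347) and not called on total counts (-0.08, adjusted P = 0.552). OSMR, the oncostatin M receptor, fell (-1.08), and IL6R rose (0.53, adjusted P = 1.68e-05). Counts of receptors with vemurafenib were thus 1 higher and 3 lower of 8, a share near the 52.6% of all genes, and 2 higher and 2 lower with total counts. The third that fell was IL1RAP, the shared accessory chain of the interleukin-1 receptor, from 25.98 ± 1.999 to 7.11 ± 0.587 CPM (-1.87, adjusted P = 4.47e-10). IL1R1, which binds IL1A and IL1B, was at 0.809 to 1.19 CPM on average in the 4 groups, and IL1RN, the antagonist, had at most 8 counts in a sample.

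In the interleukin-1 list of 12 genes, 10 were tested and vemurafenib gave 3 higher and 4 lower (median 0.09), where 26.4% of all genes were higher and 26.3% lower. IRAK3, an inhibitor of the pathway, rose by 2.002 (adjusted P = 0.0136) with samples that overlapped in CPM. Its counts were 1 to 9 per sample with DMSO and 12 to 22 with vemurafenib. NLRP1 rose by 1.09 and IRAK4 by 0.91, while IRAK1 fell by 0.54. In the list of 12 genes of gp130 signalling, 2 were higher and 3 lower (median 0.04), a share below the 52.6% of all genes. SOCS3, the feedback inhibitor induced by STAT3, fell from 27.4 ± 2.03 to 10.1 ± 0.674 CPM (-1.45, adjusted P = 1.02e-08) and was at 10.2 ± 1.24 with the combination. BCL3, a STAT3 target and NF-kB cofactor, fell by 0.66, while JAK2 (0.57), a kinase of the pathway, and PIAS3 (0.47), an inhibitor of STAT3, rose. With total counts the calls were 4 higher and 1 lower in the interleukin-1 list and 7 higher and 2 lower in the gp130 list. Tretinoin gave no call in either list in edgeR or DESeq2. In edgeR 3 and 0 genes had an unadjusted P under 0.05, again without a share of all genes.

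Known regulators of such mRNAs were measured in the same samples. A list of 14 mRNA decay and stability factors was used, not all of which act through AU-rich elements. Of these 14, 9 were lower with vemurafenib and 1 higher (median -0.40), and 6 were lower and 2 higher with total counts. Of all genes 26.3% were lower and 26.4% higher, for this list and for the next. ZFP36L2 fell most, from 265 ± 15.1 to 57.8 ± 1.87 CPM (-2.20, adjusted P = 2.84e-13). ZFP36 (-0.38, adjusted P = 0.0292) and ZFP36L1 (-0.41, adjusted P = 0.00114), decay factors of the same family, fell by less and were not called with total counts (adjusted P = 0.281 and 0.0735). The stabilising factor ELAVL1 fell by 0.46, and MAPKAPK2, the kinase that inactivates ZFP36, by 0.51. A list of 22 genes held mostly transcription factors known to act on such promoters, with the NF-kB inhibitors NFKBIA and TNFAIP3 among them. Of the 22, 14 were lower and 1, ATF3, was higher (0.32). The median was -0.45, and with total counts 12 were lower and 6 higher. FOSL1, an AP-1 subunit under ERK control, fell from 472 ± 48.1 to 49.1 ± 4.09 CPM (-3.27, adjusted P = 1.54e-14). EGR1 (-2.46), FOS (-1.95) and FOSB (-1.72) followed, and TNFAIP3, a feedback inhibitor and target of NF-kB, fell by 1.68. NFKB1 (-0.54) and RELB (-0.92), subunits of NF-kB, fell by less.

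Tretinoin raised FOSB (0.81) and EGR1 (0.68) and lowered JUND (-0.46), RELB (-0.42) and JUNB (-0.39) among the 22, and these calls held without the first tretinoin replicate. Of all genes, 3.48% were called higher and 2.2% lower with tretinoin. The interaction was called for 3 of the 22, IRF1 (0.67, adjusted P = 0.00848), JUNB (0.62, adjusted P = 0.0238) and JUN (0.74, adjusted P = 0.0427, and 0.0508 with total counts). It was called for 0.806% of all genes. IRF1, an interferon-induced factor, had fallen by 1.07 with vemurafenib and was 0.85 higher with the combination than with vemurafenib (adjusted P = 3.86e-06). CEBPB (0.44) and CEBPD (0.50) were also higher with the combination than with vemurafenib. In that comparison 4 of the 22 were higher and 1 lower, where 4.47% of all genes were called, 2.27% higher and 2.2% lower. Whether any of these factors bears on the members was not tested.

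**Figure D5:**
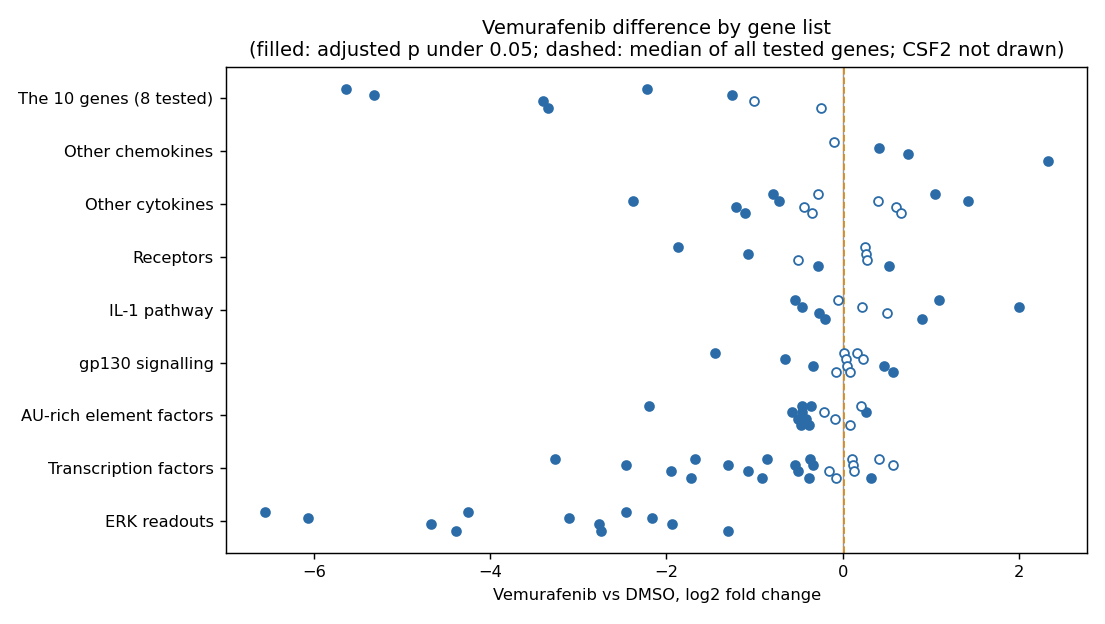
Log2 fold change of vemurafenib against DMSO (x axis) for the tested genes of each list (rows), filled where called and open where not, with CSF2 left out because its counts with vemurafenib were 0 or 1. The called members lie between -1.25 and -5.64, the 4 other chemokines lie between -0.10 and 2.33, and the 12 ERK readouts all lie below 0.

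The genes with a pattern most like those of LIF and CXCL1, the 2 members with the highest mean CPM over all 12 samples, were found by Pearson's r of log2 CPM over the 12 samples, given as a description since all points share libraries and the same 4 groups. For LIF they were PHC2 (0.998), TGFA (0.997), SLC20A1 (0.997), HIVEP3 (0.996) and PRNP (0.996). TGFA, an EGF receptor ligand, stood at 188 CPM with DMSO, 273 with tretinoin, 28.2 with vemurafenib and 31.3 with the combination. For CXCL1 they were ALDH1A3 (0.995), CTPS1 (0.995), FJX1 (0.995), SMN1 (0.994) and TMEM158 (0.994). SMN1 has a near-identical copy, SMN2, and its count is uncertain. ALDH1A3, an enzyme that makes retinoic acid, stood at 338 CPM with DMSO, 273 with tretinoin, 99.8 with vemurafenib and 103 with the combination.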

How the data were processed

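RNA was prepared as poly(A)-selected, directional paired-end libraries from A375 cells (3 samples for each of 4 groups). The authors aligned reads with STAR 2.5.3a to GRCh38.p10 and deposited raw counts of fragments over GENCODE 27 exons, counted in Union mode with strand ignored. How multi-mapping reads were treated is not given in the sources used here.

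Samples were grouped by their labels. Genes were kept by filterByExpr (minimum count 10), scaled by TMM (factors 0.901 to 1.07) and fitted over all 12 samples with edgeR 4.0.16 (R 4.3.3) by the quasi-likelihood test, with Benjamini-Hochberg adjustment over 16740 genes and a threshold of 0.05. The contrasts were each drug and the combination against DMSO, the combination against each drug, and the interaction. The SE is the log2 fold change divided by the root of F. Levels per kb use GENCODE 29 exon lengths. Transcripts were compared with blastn 2.17.0. The scripts were tested on simulated data. Total counts of 13510235 to 21534377 set the counting precision, and limits from counts cover counting error only.

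The members and gene lists were chosen with earlier results of these data known. Named were all members, up to 4 called genes of largest change in each list and comparison, a fixed set of receptors, inhibitors and related ligands, and the 5 genes most correlated with each of the 2 members of highest mean CPM over all samples. ATF3, CXCR1, IL15 and NFKB1 of the lists were named after their values were seen. Alternatives were DESeq2 1.42.0 with and without a beta prior, DESeq2 size factors, total counts, a fit without the filter, a minimum of 10 counts per sample, fits restricted to the groups of a comparison, a replicate block, and leaving out each sample. Same-numbered samples did not deviate together (18 pairs, r from -0.143 to 0.0872), so the numbers were not taken to pair samples.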

Additional observations from a re-analysis of the deposited data

How the results depend on the processing

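Over the 8 tested members and 6 comparisons, 344 of the values from other settings kept their direction and their side of the threshold. Of the rest, 2 changed direction, 3 gained a call and 4 lost it. With a sample left out, 314 kept both, 15 changed direction, 3 gained a call and 4 lost it. The number of members called went from 8 to 5, of 5 tested, for the combination against tretinoin when at least 10 counts were required in every sample, because fewer genes were tested. Under that setting the counts were also 4 instead of 5 for tretinoin, 5 instead of 6 for vemurafenib and 4 instead of 6 for the combination against DMSO. For the interaction it was 1 instead of 0 with the DESeq2 beta prior (1) and with no filter (1), each time IL24, and 0 to 1 with a sample left out. With a sample left out the calls were 5 to 5 for tretinoin, 6 to 7 for vemurafenib and 5 to 7 for the combination against DMSO, 1 to 1 against vemurafenib and 8 to 8 against tretinoin.

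Values that changed sign were not called in any setting. With total counts CXCL8 for tretinoin was 0.0536 and CCL2 for the combination against DMSO was 0.0477. With a sample left out, CXCL8 for tretinoin lay between -0.0677 and 0.0425 and CCL2 for the combination against DMSO between -0.24 and 0.00639. For the combination against vemurafenib the ranges were -0.00316 to 0.33 for CXCL8, -0.14 to 0.16 for CXCL1, -0.55 to 0.22 for CXCL2, -0.12 to 0.65 for CXCL3 and -0.32 to 0.0344 for IL24. For the interaction they were -0.90 to 0.18 for CXCL3 and -0.18 to 0.0678 for CCL2. The causes were not tested.

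With the replicate block the members called were 5, 6, 5, 1, 8 and 0 over the 6 comparisons, and the CXCL2 call for the combination against DMSO (adjusted P = 0.0524) was the one call that changed. CXCL2 with vemurafenib was called without DMSO replicate 2 (-1.25, adjusted P = 0.0363), without vemurafenib replicate 2 (-1.40, adjusted P = 0.0431) and with only the groups compared (adjusted P = 0.0496). Over all genes, calls for tretinoin were 951, ranging from 305 (only the groups compared) to 1540 (no filter). For the combination against vemurafenib they were 749, ranging from 460 (without combination replicate 2) to 1269 (only the groups compared). For the interaction they were 135, ranging from 60 (without DMSO replicate 2) to 610 (no filter). Low counts, at most 48 in a sample, limit CXCL2, CXCL3, IL1A and IL1B, and IL6 had at most 3.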
